A study of Gossypium hirsutum with 7 samples.

Results

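ERF3, ERF7 and ERF8 are cotton genes named as ethylene response factors, and their levels were followed here in whole ovules at 0 days post anthesis. This is the day of flowering, when single cells of the ovule surface begin to grow out as fibres. Members were the probe sets whose single annotated gene carries the RefSeq synonym ERF3, ERF7 or ERF8. The rule found 3 probe sets, 1 for each gene, of 23977 tested. The genes were chosen on values of these same arrays, namely the low ERF3 level in silenced ovules, the high ERF7 level in over-expressing ovules and the gap in ERF8 between the transgenic groups. Their differences are therefore given as a description and support no test.

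RNA came from Gossypium hirsutum, an allotetraploid whose A and D genomes each carry a copy of most genes. Each of 7 samples had its own 1-colour Affymetrix cotton array. The groups were wild type (2 arrays), GhHD-1 silenced transgenic plants (2 arrays) and GhHD-1 over-expression transgenic plants (3 arrays), all sampled as whole ovules at 0 days post anthesis. GhHD-1 is a homeodomain factor most highly expressed at that stage, and the arrays were run to look for genes it may regulate as fibres initiate. All plants were grown in a glasshouse, and ovules to be compared had been collected on the same date. Arrays of a group are labelled as biological replicates. The sources used here do not give the number of lines in a transgenic group, the promoter that drives the transgene or the cultivar. With 2 or 3 arrays per group, the number of arrays limits the precision of every value below.

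Ethylene is a gaseous hormone made from S-adenosylmethionine by ACC synthase and then ACC oxidase. Its signal passes from receptors at the endoplasmic reticulum through EIN2 to EIN3-type factors, which switch on ERF genes. ERF proteins carry an AP2/ERF DNA-binding domain, and many of them bind the GCC box of ethylene- and stress-responsive promoters. Some ERFs activate transcription and others repress it. In Arabidopsis the proteins called ERF3, ERF7 and ERF8 belong to the repressors with an EAR motif, but a shared number does not make a cotton gene their counterpart. In cotton, ethylene is known for promoting fibre elongation in cultured ovules.

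The members are listed in the annotation as LOC107926309 (ERF3), LOC107941184 (ERF7) and LOC107922990 (ERF8). The ERF8 set has an identifier ending in _s_at, which marks probes that can read several related transcripts, so its value may mix gene copies. Values are log2 intensities, so a difference of 1 is a doubling. They were made separately for each probe set and do not rank 1 gene above another.

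Arrays of a group were not equally alike. The median log2 intensity of an array was 7.61 to 7.72. The lowest 5% of an array's probe sets reached up to between 3.50 and 3.67, taken as the floor. The silenced arrays were the most alike, with an SD of 0.20 over their differences, against 0.49 for the wild-type pair and 0.26 to 0.43 for the over-expression pairs. The wild-type arrays also differed at a reporter control probe set, RPTR-Ghi-U57609-2_s_at, with 11.88 on the array labelled as replicate 2 and 5.09 on the array labelled as replicate 1. The former exceeded all transgenic arrays. Over-expression replicate 1 read 5.91, close to wild-type replicate 1. Over all tested probe sets wild-type replicate 2 was nearer to over-expression replicates 1 and 3 (SD of differences 0.33 and 0.32) than to wild-type replicate 1 (0.49). Whether the label of that array is right cannot be told from these values, and every difference from wild type rests on the labels as given. Each difference of a member from wild type is therefore also given without either wild-type array. Of the marker lists, the 4 MADS factors of the ovule list had mean levels of 11.67 and 11.83 in wild type, 11.94 and 11.88 in silenced and 11.90, 11.85 and 11.90 in over-expressing ovules. The 9 fibre-cell probe sets had means of 7.63 to 8.13 in wild type, 7.81 on both silenced arrays and 7.72 to 8.17 in over-expression. Of these, Rac13 and a CelA1 probe set were near the floor, between 3.51 and 4.51. The 9 probe sets of the maturing embryo list included seed storage genes near the floor (vicB_At and LegA, 3.07 to 4.32), a LEGB probe set at 9.48 to 9.92, and the late embryogenesis genes Lea5-D at 10.46 to 12.09 and Lea14-A at 6.88 to 8.70. At that list both silenced arrays lay above wild type at 5 and below it at 1. Arrays of these groups did not overlap at 45.4% of all tested probe sets. Of the 5 above, another LEGB set (3.07 to 3.40), Mat5-D (3.30 to 3.66) and MatP7 (4.46 to 4.78) were dim. The 1 below was MAT, an S-adenosylmethionine synthetase taken in through its name. The part of this list in the levels of ERF7 and ERF8, which were also above wild type in silenced ovules, was not tested. No probe set was annotated for the green tissue list, and none as GhHD-1.

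ERF3 was lowest in silenced ovules and stood at similar levels in wild-type and over-expressing ovules. On the wild-type arrays it read 9.05 and 9.44, on the silenced arrays 8.35 and 8.56, and on the over-expression arrays 9.07, 9.06 and 9.32. Both silenced arrays lay below the other 5, and the wild-type and over-expression arrays overlapped. The silenced mean was 8.46 ± 0.15 (SD, n = 2), against 9.24 ± 0.28 (SD, n = 2) in wild type. This is a log2 difference of -0.79 (SE 0.18, 95% interval -1.20 to -0.37), or 1.73-fold lower. The over-expression mean was 9.15 ± 0.15 (SD, n = 3), which is 0.69 above silenced (SE 0.16, 95% interval 0.31 to 1.07), or 1.62-fold higher. Between over-expression and wild type the difference was -0.09 (SE 0.16, 95% interval -0.47 to 0.29). A layout in which both silenced arrays lie below the other 5 was found at 9.95% of all tested probe sets.

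**Figure D1:**
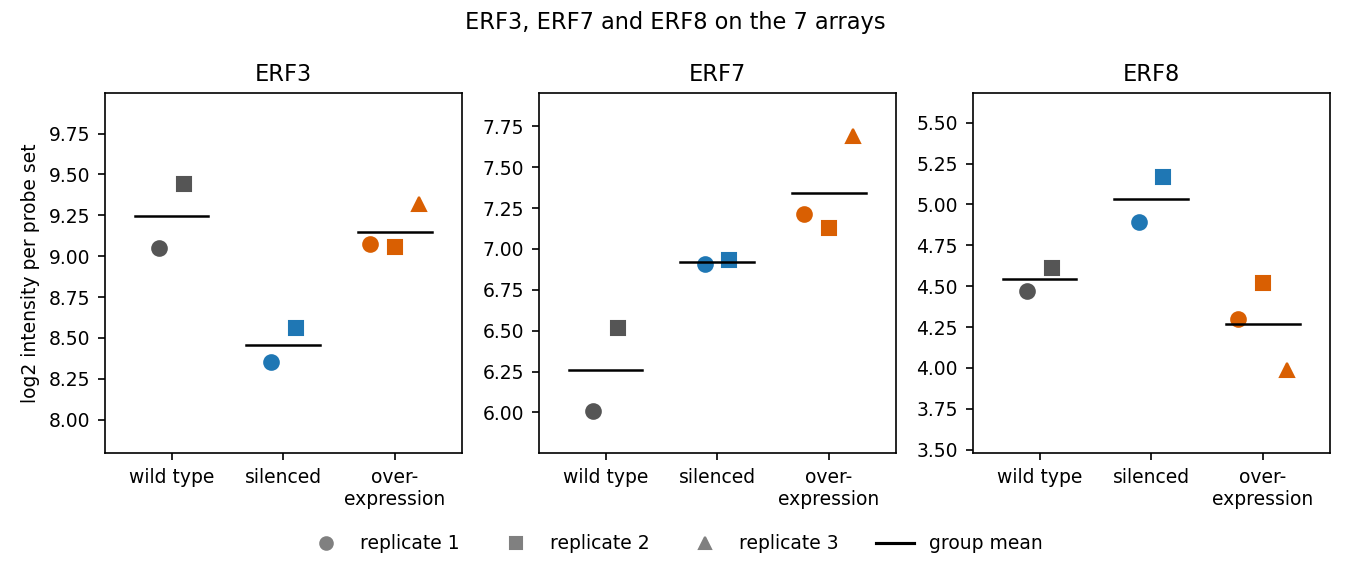
Log2 intensity (vertical axis, 2.2 units high in each panel) of ERF3, ERF7 and ERF8 on each array, by group; points are arrays, marked by replicate number, and bars are group means of 2 or 3 arrays. For ERF3 the silenced arrays lie lowest (8.35 and 8.56), for ERF8 they lie highest (4.89 and 5.17), and for ERF7 the groups ascend from wild type to over-expression.

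ERF3 was lower in silenced ovules than on either wild-type array. Without wild-type replicate 1, which read lower, the difference of silenced from wild type was -0.98, and without replicate 2 it was -0.59. The over-expression difference from wild type changed sign with the array used, at -0.29 without replicate 1 and 0.10 without replicate 2. Of the 9 fibre-cell probe sets, both silenced arrays lay below wild type at 3 (EXPA1, E6 and HOX3) and above it at 2 (both of CelA1), and the groups overlapped at 4. Arrays of these groups did not overlap, either way, at 45.4% of all tested probe sets. HOX3, a homeodomain factor active in fibres, read 9.94 and 10.06 in silenced ovules, 10.16 and 10.60 in wild type and 10.90, 10.25 and 10.90 in over-expression. The fibre protein gene E6 read 9.85 and 9.69 in silenced ovules against 10.09 and 10.70 in wild type, and 10.62, 9.73 and 10.62 in over-expression. In whole ovules, fewer cells of a type and less RNA per cell cannot be told apart, and the part of the fibre cells in the ERF3 level was not tested.

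ERF7 read higher in both transgenic groups than in wild type, and highest in over-expression. On the wild-type arrays it read 6.01 and 6.52, on the silenced arrays 6.91 and 6.93, and on the over-expression arrays 7.21, 7.13 and 7.69. No 2 groups overlapped. The ascending order from wild type through silenced to over-expression without overlap was found at 0.988% of tested probe sets, and both transgenic groups above wild type at 9.39%.

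The ERF7 means were 6.26 ± 0.36 (SD, n = 2) in wild type, 6.92 ± 0.02 (SD, n = 2) in silenced and 7.34 ± 0.31 (SD, n = 3) in over-expressing ovules. Over-expression stood 1.08 above wild type (SE 0.22, 95% interval 0.57 to 1.59), or 2.12-fold. The silenced mean was 0.66 above wild type (SE 0.24, 95% interval 0.10 to 1.22), or 1.58-fold. Both transgenic means of ERF7 thus lay on the same side of wild type. The step from silenced to over-expression was 0.42 (SE 0.22, 95% interval -0.09 to 0.93), and it was 0.25 without over-expression replicate 3.

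Both comparisons with wild type share the same wild-type arrays, on which ERF7 differed by 0.51. That gap was larger than for 81.5% of tested probe sets. Without wild-type replicate 1, ERF7 was 0.83 higher in over-expression and 0.40 higher in silenced ovules than on the remaining wild-type array. Without replicate 2 these differences were 1.34 and 0.91. Each of these fits leaves a lone wild-type array, whose spread is taken from the other groups. Over-expression replicate 3 read highest of the 7 arrays and wild-type replicate 1 lowest. The mean of the ovule MADS list was also above both wild-type arrays on all 5 transgenic arrays. The margin was narrow, with 11.85 on over-expression replicate 2 against 11.83 on wild-type replicate 2. In each transgenic group 2 of the 4 MADS probe sets lay above wild type and 2 overlapped. The part of this list in the ERF7 level was not tested.

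ERF8 had the reverse layout of ERF3 and was highest in silenced ovules. On the wild-type arrays it read 4.47 and 4.61, on the silenced arrays 4.89 and 5.17, and on the over-expression arrays 4.30, 4.52 and 3.99. Both silenced arrays lay above the other 5, a layout found at 9.52% of tested probe sets, and wild type and over-expression overlapped. These are dim signals. The level of ERF8 was at percentile 13.8 of the tested probe sets on average over the arrays, and over-expression replicate 3 read close to the floor.

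The ERF8 means were 4.54 ± 0.10 (SD, n = 2) in wild type, 5.03 ± 0.20 (SD, n = 2) in silenced and 4.27 ± 0.27 (SD, n = 3) in over-expressing ovules. Over-expression differed from silenced by -0.76 (SE 0.18, 95% interval -1.18 to -0.34), or 1.70-fold lower. Silenced ovules were 0.49 above wild type (SE 0.19, 95% interval 0.03 to 0.95), with 0.42 without wild-type replicate 1 and 0.56 without replicate 2. The over-expression difference from wild type was -0.27 (SE 0.18, 95% interval -0.69 to 0.15). It was -0.34 without wild-type replicate 1, -0.21 without wild-type replicate 2 and -0.13 without over-expression replicate 3. Low signals are compressed on this scale, so these sizes are not set against those of the brighter members.

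**Figure D2:**
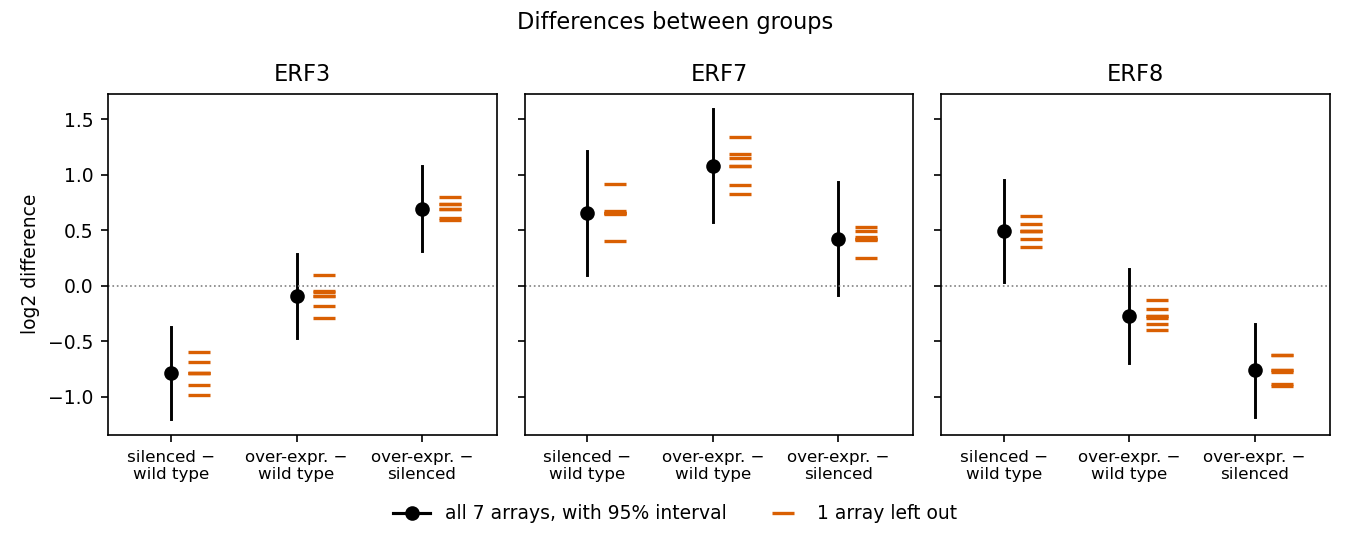
Log2 differences between groups (vertical axis) for ERF3, ERF7 and ERF8 in the 3 comparisons; black points and lines are the values on all 7 arrays with their 95% intervals from limma, and orange dashes are the values with 1 array left out. ERF3 and ERF8 have opposite signs in silenced minus wild type (-0.79 and 0.49) and in over-expression minus silenced (0.69 and -0.76), while all 3 differences of ERF7 lie above 0.

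Across all tested probe sets, limma with Benjamini-Hochberg adjustment at 0.05 called 0 of the 3 members in each comparison. It called 0% of tested probe sets between silenced and wild type, 0.00417% between over-expression and wild type and 0.0209% between over-expression and silenced. Without adjustment, 3, 1 and 2 of the members had a p under 0.05 in these comparisons, as had 14.5%, 10.4% and 12.1% of all tested probe sets. The adjusted p of the members lay between 0.175 and 0.321 for silenced against wild type, between 0.397 and 0.830 for over-expression against wild type and between 0.185 and 0.500 for over-expression against silenced. Non-overlapping arrays were seen at 3 of 3 members between silenced and wild type (45.4% of tested probe sets), 1 of 3 between over-expression and wild type (24.3%) and 3 of 3 between the transgenic groups (33.9%). Since the members were chosen with these contrasts known, nothing is read from those counts. Over the 7 arrays ERF3 spanned 1.09, ERF8 1.18 and ERF7 1.68 log2 units, spans at percentiles 88.7, 91.0 and 96.6 of all tested probe sets.

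ERF9 (LOC107932376) is the other ethylene response factor that the rule on names found, and it was read by 2 probe sets. The brighter set read 5.67 and 5.91 in wild type, 4.82 and 4.84 in silenced and 5.11, 6.33 and 5.55 in over-expressing ovules. The dimmer set read 5.27 and 5.09 in wild type, 4.30 and 4.51 in silenced and 4.20, 5.22 and 4.99 in over-expressing ovules. At both sets the silenced arrays lay below wild type, as for ERF3 and unlike ERF7 and ERF8, with differences of -0.96 (SE 0.35) and -0.78 (SE 0.31). Over-expression replicate 1 was low as well, below both silenced arrays on the dimmer set.

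Besides ERF9, the rule on names found only genes with names of ethylene synthesis. It could search only the 324 tested probe sets whose single gene has a name, so ethylene genes without one are not counted. The list fixed by name, ERF9 included, held 11 probe sets from 7 genes, and 0 of them passed in either direction in any comparison, with adjusted p of at least 0.171. Between silenced and wild type 5 lay above and 6 below, with a median of -0.04 against 0.02 over all tested probe sets. The median was -0.02 for over-expression against wild type (0.02 over all) and 0.23 for over-expression against silenced (0.01 over all). A gene named only ACS, a name that does not settle which enzyme it makes, contributed 4 of the 11, all dim at 2.59 to 5.62. Without it the medians were -0.78, -0.16 and 0.83 over 7 probe sets. The -0.78 and the 0.83 are the values of the dimmer and the brighter ERF9 set, which read 1 gene.

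ACO3 encodes ACC oxidase, the enzyme that releases ethylene. It read 9.35 and 9.43 on the silenced arrays, 10.67 and 11.44 in wild type and 11.12, 11.27 and 10.31 in over-expression. Its layout matched that of ERF3, with both silenced arrays below the other 5. The probe sets of the pair of genes named ACO1 did not follow. The brighter, of LOC107905899, read 8.33 and 8.12 in silenced ovules, within the wild-type readings of 7.94 and 8.84. The dimmer, of LOC107954048, read 6.91 and 7.30 in silenced ovules, above 6.84 and 6.32 in wild type.

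The genes with numbered ACS names, taken as ACC synthases by name alone, differed from each other too. ACS1 read 11.42 to 12.02 on all arrays, and its groups overlapped in every comparison. The gene listed as ACS3 and ACS6 read 8.62 and 8.68 in silenced ovules, below 10.26 and 9.69 in wild type, but from 7.96 to 11.29 in over-expression. Silenced arrays thus lay below wild type at ERF3, ERF9 (both sets of 1 gene), ACO3 and ACS3/ACS6. They did not at ERF7, ERF8, ACO1, ACS1 or the gene named ACS. Silenced arrays lay below both wild-type arrays at 5226 of all 23977 tested probe sets, so nothing is read from this list. At ACS3/ACS6 and the dimmer ERF9 set, over-expression replicate 1 was lower still (7.96 and 4.20).

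**Figure D3:**
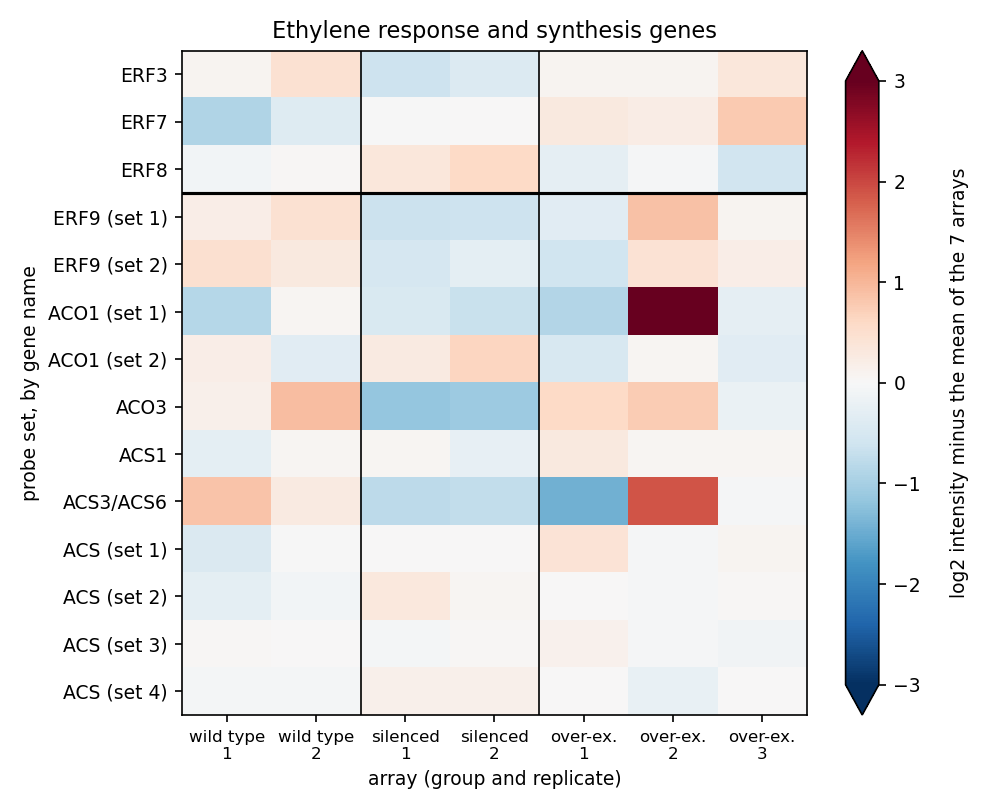
Log2 intensity minus the mean of the 7 arrays (colour, from -3 to 3, red above and blue below) for the members (above the line) and the 11 probe sets of the other ethylene genes (rows), on each array (columns, by group and replicate). The silenced columns are blue for ERF3, ERF9, ACO3, ACS3/ACS6 and the brighter ACO1 set, whose mean is drawn up by 1 array, and over-expression replicate 2 is dark red for an ACO1 set, at 3.06 above its mean, and for ACS3/ACS6, at 1.88.

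Over-expression replicate 2 read far above the other over-expression arrays at 2 probe sets of ethylene synthesis genes. The brighter ACO1 probe set read 11.84 there, against 7.90 and 8.51 on the other two, and was 3.64 log2 units, or 12.4-fold, above their mean. Only 5 of 23977 tested probe sets had a larger excess on that array. ACS3/ACS6 was 6.16-fold above the other two, with 47 probe sets higher, and the brighter ERF9 set was 2.00-fold above. ACS1 and the 4 sets of the gene named ACS differed there by -0.28 to -0.04, and the dimmer ACO1 set by 0.46. At the members the same array differed from the mean of the other two by -0.14 for ERF3, -0.33 for ERF7 and 0.37 for ERF8. The difference of over-expression from silenced was 0.74 for ERF3, 0.53 for ERF7 and -0.89 for ERF8 without over-expression replicate 2, and 0.61, 0.25 and -0.62 without replicate 3. On replicate 2 a difference of -0.04 from the mean of the other over-expression arrays stood at percentile 48.4 of all tested probe sets. A difference of 0.09 stood at percentile 71.6. Of the 9 fibre-cell probe sets, which read 7 genes, 8 were lower on replicate 2 than that mean. They were led by E6 (-0.89), EXPA1 (-0.82) and HOX3 (-0.65), and H6L read higher (0.56). Their part was not tested.

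The named genes nearest in pattern to each member were found by the SD, over the 7 arrays, of the difference from the member's log2 values, among 323 other probe sets with a gene name. A small SD means that the 2 probe sets went up and down together by the same amount. ERF3 alone had an SD of 0.39 over the arrays. Nearest to it were the gene listed as rgp1, GRPL1 and GRPL2 (SD of the difference 0.18, at a low mean level of 4.02), the MYB factor listed as GHMYB36 and myb120a (0.18) and AT1 (0.21). The median over all named probe sets was 0.44.

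ERF7 had an SD of 0.54, and nearest to it was KCS38 (SD of the difference 0.23). KCS38, whose enzyme lengthens very-long-chain fatty acids, read 8.03 and 8.14 in wild type, 8.30 and 8.39 in silenced and 8.79, 8.59 and 9.02 in over-expressing ovules, the same ascending order of groups without overlap. CPA-FAS-3, named as a cyclopropane fatty acid synthase (0.26), and the auxin gene Aux2 (0.30) followed. Only 15 of all tested probe sets were nearer to ERF7 than KCS38.

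ERF8 had an SD of 0.38, and nearest to it were the fibre gene H6L (SD of the difference 0.20), a probe set of the fasciclin-like protein gene FLA19 (0.23) and CNGC2, named as a cyclic nucleotide-gated channel (0.23). H6L and CNGC2 shared the low reading of ERF8 on over-expression replicate 3, and FLA19 shared its high readings on the silenced arrays. For ERF3, 117 of all tested probe sets were nearer than rgp1, and for ERF8, 59 were nearer than H6L. The medians over all named probe sets were 0.57 for ERF7 and 0.46 for ERF8. All of these likenesses rest on the same 7 arrays and are descriptions.

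**Figure D4:**
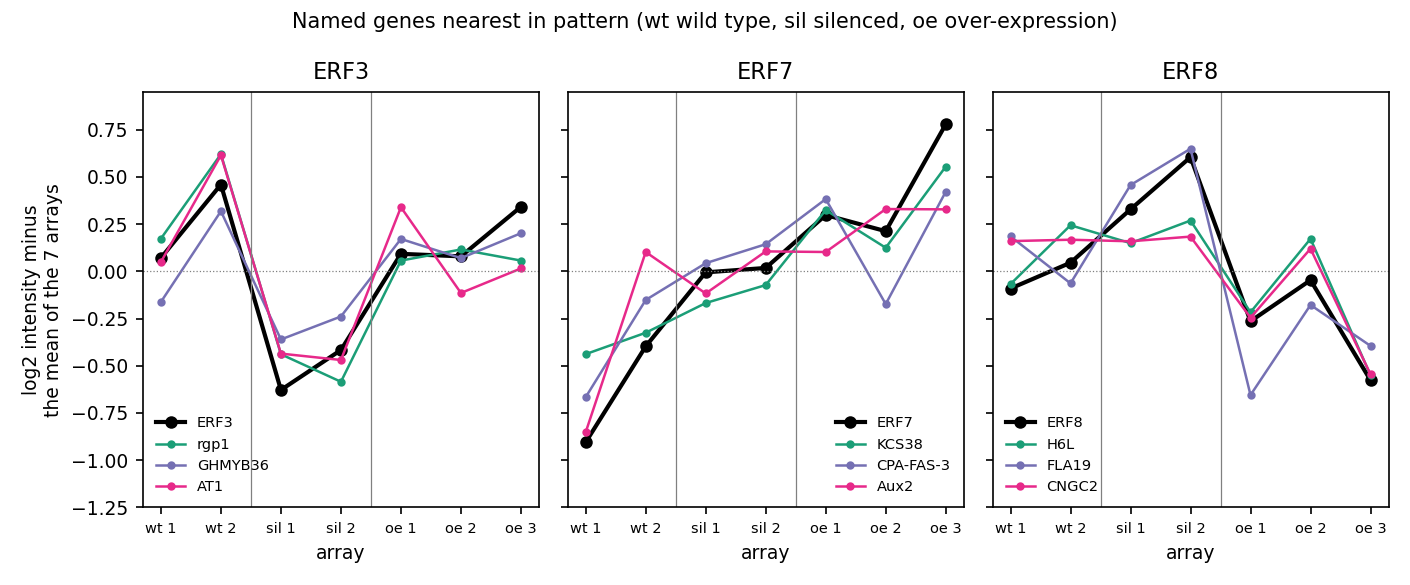
Log2 intensity minus the mean of the 7 arrays (vertical axis) on each array (horizontal axis, by group and replicate) for each member (black) and the 3 named genes nearest in pattern (colours); lines only join the values of 1 gene. KCS38 ascends with ERF7 from wild type to over-expression, and the genes nearest to ERF3 are lowest on the silenced arrays.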

How the data were processed

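The authors deposited 1 table of log2 intensities per probe set for the 7 arrays; the submitters' processing notes name RMA, limma and R 2.7.1 without their roles, and the sources used here give no further steps. RMA equalises arrays by quantiles and compresses low signals. Detection calls were not used here.

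Of 24132 probe sets, 103 AFFX and 52 RPTR controls were set apart. Names came from the platform annotation: 697 tested probe sets had 1 gene, all matched in the RefSeq table of assembly Gossypium_hirsutum_v2.1, 46 had several and 23234 had none listed. No coordinates are given because the array table names no build. No file at hand holds sequences of the members.

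All 7 arrays were fitted with limma 3.58.1 in R 4.3.3, with 1 mean per group and eBayes (4 residual and 3.01 prior degrees of freedom). Two-sided p-values were adjusted by Benjamini-Hochberg over all tested probe sets. The fit was also run on simulated data in which all arrays had 1 common spread, unlike the groups here. That run checks the code, and cannot tell whether the fit suits groups of unequal spread. SDs are over arrays, and SEs and intervals are moderated.

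Named genes were the members, ethylene and AP2-domain genes by name, and the 3 named probe sets nearest in pattern. Members and lists were chosen with earlier results of these data known. The embryo list also took in MAT (SAMS), an S-adenosylmethionine synthetase, through its name.

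Same-numbered arrays of silenced and wild type deviated from their group means with r = 0.10 over probe sets. Those of over-expression gave r = -0.31 and -0.22 with wild type, and 0.15 and 0.05 with silenced. The signs differed, and in a pair of arrays the deviations mirror each other, so these r values cannot decide on a pairing. Ovules to be compared were collected on the same date, but the labels do not say that a number marks a date. Numbers were therefore not taken to pair arrays in the main fit. The alternatives tried were a replicate block, fitting the compared groups alone, equal array medians, cyclic loess, leaving out the dimmest 25% of probe sets, a robust prior, an intensity trend, array weights and leaving out each array.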

Additional observations from a re-analysis of the deposited data

Results flagged for a closer look

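Reporter control probe sets, set apart from the tested probe sets, gave signals that differed between arrays. At RPTR-Ghi-A06498-1_at the silenced arrays read 9.99 and 10.15 and the wild-type arrays 4.08 and 4.59, a difference of 5.74 (log2). The over-expression arrays read 4.63, 4.66 and 4.39 there, so only the silenced group was high. At RPTR-Ghi-U57609-2_s_at the wild-type arrays themselves differed by 6.79, replicate 2 being the higher, and the silenced mean was 1.30 above the wild-type mean, although wild-type replicate 2 read highest of the 7 arrays. A test for a single outlying array was not run, because no group had 4 or more arrays.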

How the results depend on the processing

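The count of members called stayed at 0 in every comparison and alternative except over-expression against silenced with array weights, where it was 2. The members were chosen with that contrast known, so nothing is read from these calls. The weights were 1.81 for each silenced array and 0.46 for each wild-type array. Over-expression replicates 1, 2 and 3 had 1.03, 0.61 and 2.25. The part of the weights in the calls was not tested. ERF3 (0.76, adjusted p = 0.0226) and ERF8 (-0.88, adjusted p = 0.0260) passed limma's test there among 1209 of 23977 probe sets called. Over all alternatives the adjusted p of this difference lay between 0.0226 and 0.862 for ERF3 and between 0.0260 and 0.888 for ERF8. Over all tested probe sets the calls ranged from 0 to 73 for silenced against wild type, 0 to 475 for over-expression against wild type and 0 to 1209 for over-expression against silenced, against 0, 1 and 5 on all arrays. With 1 array left out the count of members called was 0 in each comparison. Of 132 differences of members under the alternatives 131 kept their sign. The exception was ERF3 in over-expression against wild type, at 0.10 without wild-type replicate 2 and -0.29 without replicate 1. Without wild-type replicate 1 the adjusted p of ERF3 for silenced against wild type was 0.0598, and over its alternatives it lay between 0.0598 and 0.728. With the replicate block 0 members were called in each comparison, and ERF7 differed by 0.91 between over-expression and wild type. ERF8 belongs to the dimmest 25% and has no value with these left out.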

Other observations

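Other factors with an AP2 domain went their own ways. The list by name held 8 probe sets from 5 genes, and 0 of them passed in any comparison. RAV1, which carries a B3 domain beside its AP2 domain, was read by 3 probe sets of the same gene. At all of them the silenced arrays lay above the wild-type and the over-expression arrays, as for ERF8. This layout was found at 9.52% of all tested probe sets. The dimmer sets (4.13 to 4.84 and 5.13 to 6.14) had gaps of only 0.08 and 0.02 to the nearest over-expression array. The brightest read 8.66 and 8.74 in silenced ovules, 7.17 and 6.26 in wild type and 5.52, 8.35 and 6.24 in over-expression. Its high reading in over-expression was on replicate 2, the array on which ACO1 and ACS3/ACS6 were high.

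Of the CBF and DREB-type genes, named for cold and drought responses, the dimmer CBF17 probe set read 8.57 on over-expression replicate 2 against 7.31 and 7.48 on the other two. CBF20, also listed as DREB1C, read 8.77 against 7.50 and 7.91. Mean levels of the 8 probe sets of the whole list, RAV1 included, were 8.29 on over-expression replicate 2. The other over-expression arrays had 7.43 and 7.60, the silenced arrays 8.03 and 8.10 and the wild-type arrays 7.84 and 7.57. Silenced minus wild type was 0.57, 0.72 and 1.99 at the RAV1 sets, and from -0.41 to 0.10 at the CBF, DREB and DBP sets. MAT, the gene that makes the precursor S-adenosylmethionine, read 12.02 and 11.92 in silenced ovules, below 12.57 and 12.46 in wild type and 12.21 to 12.61 in over-expression.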
